A study of Rattus norvegicus with 60 samples.

Results

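The NADPH oxidase and superoxide defence genes described here are 9 genes: Cybb, Cyba, Ncf1, Ncf4 and Nox4 of the oxidases, and Sod2, Sod3, Gpx3 and Cat of the enzymes that remove superoxide and peroxide. They were chosen by symbol, each as the array probe set that carries that 1 symbol, and they make up 9 of the 18166 genes named on the array. Each had 1 probe set, and all 9 were tested without a filter on dim signal. Expression was measured on 60 Affymetrix arrays of 20 rats with haemophilia A, the inherited lack of coagulation factor VIII, which every group shared. A bleed had been induced in the left knee of 11 rats, and 9 other rats had undergone a sham procedure; after 24 h, tissue from inside the knee was collected together with the popliteal node, a lymph node behind the knee. The bled knees, the contralateral knees and the nodes of each side gave 11 arrays a group, the sham knees 7 and the sham nodes 9, because 2 sham knees yielded too little RNA. Contralateral and sham samples were right-sided, so side and bleed cannot be told apart, and blood and the injury that the labels name cannot be told apart either. Every value below is a log2 expression value or a difference of such values, and a difference of 1 is a doubling.

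NADPH oxidases move electrons from NADPH to oxygen and so make superoxide or hydrogen peroxide. In phagocytes such as neutrophils and macrophages, the membrane pair encoded by Cybb and Cyba is switched on when cytosolic subunits, among them those encoded by Ncf1 and Ncf4, join it; Nox4 needs only the Cyba partner, is found in non-phagocytic cells and makes mainly hydrogen peroxide. Superoxide is turned into hydrogen peroxide by superoxide dismutases, of which Sod2 encodes the mitochondrial and Sod3 the extracellular enzyme, and peroxide is then removed by enzymes such as the secreted glutathione peroxidase of Gpx3 and the peroxisomal catalase of Cat.

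The promoters of 4 members that rose in the bled knee and have an entry in the RefSeq table (build GRCr8) are shown because their transcripts rose together. Each run is the 250 bases before the annotated start, read 5′ to 3′ on the gene's strand: Cybb at chrX:16065066-16065315 (minus strand), Cyba at chr19:67404215-67404464 (minus), Ncf1 at chr12:28121635-28121884 (plus) and Sod2 at chr1:50050169-50050418 (minus). Capitals mark a match, on the opposite strand in each case, to GAGGAA (the PU.1 core) in Cybb and to TGACNNNGC (the antioxidant response element) in Ncf1 and Sod2.
Cybb: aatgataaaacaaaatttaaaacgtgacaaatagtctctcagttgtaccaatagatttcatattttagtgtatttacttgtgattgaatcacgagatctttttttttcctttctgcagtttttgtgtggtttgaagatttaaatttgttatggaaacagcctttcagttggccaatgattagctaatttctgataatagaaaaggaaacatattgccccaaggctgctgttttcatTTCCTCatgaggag
Cyba: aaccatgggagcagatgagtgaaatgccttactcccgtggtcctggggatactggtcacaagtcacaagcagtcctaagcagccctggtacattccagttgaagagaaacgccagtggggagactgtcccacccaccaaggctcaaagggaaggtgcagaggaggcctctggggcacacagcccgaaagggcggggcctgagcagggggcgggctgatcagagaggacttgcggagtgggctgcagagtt
Ncf1: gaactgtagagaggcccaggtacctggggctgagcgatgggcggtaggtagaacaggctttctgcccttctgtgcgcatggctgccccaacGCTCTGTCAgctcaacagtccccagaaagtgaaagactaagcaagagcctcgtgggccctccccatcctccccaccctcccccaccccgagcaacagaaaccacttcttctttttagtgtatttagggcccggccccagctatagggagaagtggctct
Sod2: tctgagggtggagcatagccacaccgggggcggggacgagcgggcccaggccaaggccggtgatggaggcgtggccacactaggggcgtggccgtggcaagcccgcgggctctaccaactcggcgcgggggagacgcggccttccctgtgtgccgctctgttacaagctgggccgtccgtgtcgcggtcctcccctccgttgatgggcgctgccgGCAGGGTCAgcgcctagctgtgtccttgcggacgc
The third motif searched on both strands was GGGNNNTTC, part of a kappa B site. The match in Cybb began at −14, that in Ncf1 at −159 and that in Sod2 at −35, counted from the start with −1 as the last base before it, and no match overlapped one of another motif. Cyba and Nox4 held none of the 3 motifs, and GAGGAA lay on the gene's own strand at −153 in Gpx3 and at −200 in Cat. Of 33469 rat promoters in the table, 27.6% held GAGGAA, 12.1% held TGACNNNGC and 14.2% held GGGNNNTTC. The search and these shares also covered a short stretch after the annotated start, which is not printed. A match in a single promoter is thus common, and these matches describe letters, not binding.

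Joint tissue and node were told apart by their markers. Prg4, the lubricin gene of the joint lining, lay between 12.92 and 13.41 in the knees and between 7.09 and 10.26 in the nodes, whereas the B cell gene Cd79b lay between 5.60 and 7.22 in the knees and between 11.09 and 11.77 in the nodes. Each array was correlated with the mean of the rest of its group. The sham arrays of the C5 knee (0.965), the C9 node (0.966) and the C2 node (0.984) stood apart from their groups, the other node arrays lying at 0.992 or above. In the knee the members' means lay between the 71.2 and the 99.7 percentile of all probe sets, and Nox4 was dim in the node, where its mean was 4.66, at the 32.6 percentile.

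**Figure D1:**
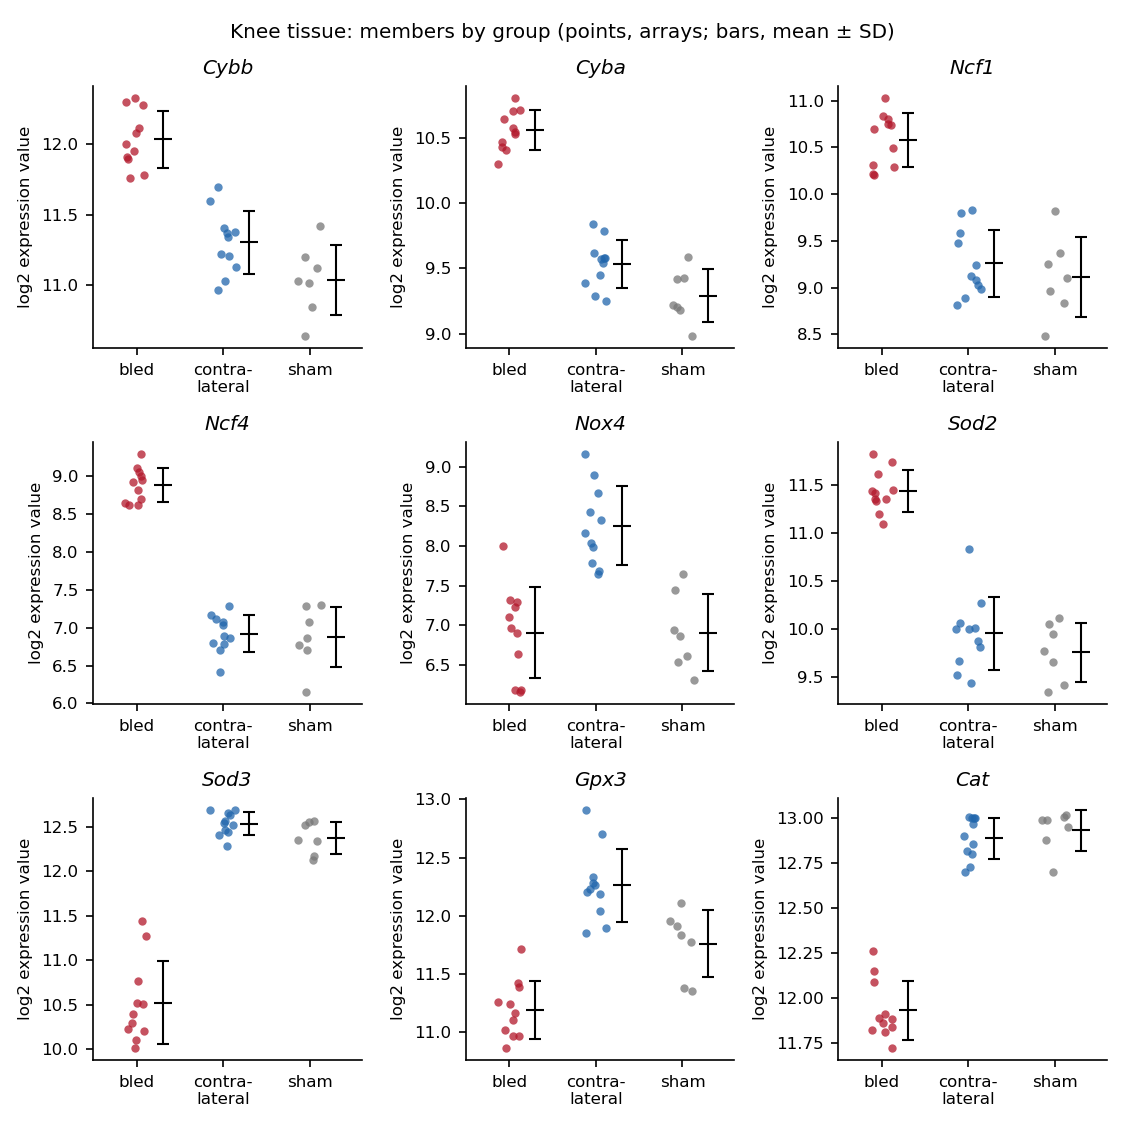
Log2 expression values of the 9 genes in knee tissue, 1 panel a gene, with 1 point per array (11 bled, 11 contralateral, 7 sham) and the mean ± SD beside the points. The bled knees lie above both other groups for Cybb, Cyba, Ncf1, Ncf4 and Sod2 and below both for Sod3 and Cat, whereas Nox4 is highest in the contralateral knees.

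In the bled knee the 4 phagocyte oxidase subunits and the mitochondrial dismutase Sod2 exceeded their contralateral levels, and Nox4, the extracellular dismutase Sod3, Gpx3 and Cat were lower. Ncf4 rose most, 3.89-fold, and Sod3 fell most, 4.04-fold. All 9 genes passed limma's test (adjusted p under 0.05 over all probe sets), 5 higher and 4 lower, in a comparison where 19.5% of all probe sets were higher and 15.2% lower. Of the 18166 named genes 4698 were higher and 4233 lower, which are larger shares. Every one of the 11 rats showed the same direction for each of the 9 genes. The share of all probe sets that did so was not counted, so this describes the 9 genes only. Since the members went both ways, their median difference (0.73, against 0.00 over all probe sets) describes no common shift.

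Cybb, the catalytic membrane subunit gp91phox, ranged from 11.76 to 12.33 in the bled knees (median 12.00), from 10.97 to 11.70 in the contralateral knees (median 11.34) and from 10.64 to 11.42 in the sham knees (median 11.03). No bled knee overlapped either other group. The difference from the contralateral side was 0.73 ± 0.09 (SE, n = 11 per group; 1.66-fold; limma, adjusted p = 1.24e-07). Cyba, its stabilising partner p22phox, ranged from 10.30 to 10.81 in the bled knees (median 10.55), from 9.25 to 9.84 contralaterally (median 9.57) and from 8.98 to 9.59 in sham knees (median 9.22). Again the bled knees stood clear of both groups, by 1.02 ± 0.08 over the contralateral side (2.03-fold; adjusted p = 2.84e-12).

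Ncf1, the cytosolic organiser p47phox, lay between 10.21 and 11.03 in the bled knees (median 10.70), between 8.81 and 9.83 contralaterally (median 9.12) and between 8.48 and 9.82 in sham knees (median 9.10). It exceeded the contralateral knees by 1.32 ± 0.14 (2.50-fold; adjusted p = 5.05e-09), with no overlap. Ncf4, the cytosolic subunit p40phox, lay between 8.61 and 9.29 (median 8.92), against 6.41 to 7.29 contralaterally (median 6.89) and 6.15 to 7.30 in sham knees (median 6.86). Its bled knees were more than a full log2 unit above the highest of the other knees, and its difference of 1.96 ± 0.12 (adjusted p = 1.93e-14) was the largest rise among the members. Over the 29 knee arrays the deviations of the 4 subunits from their group means were positively correlated in each pair, most in Cybb with Ncf1 (Pearson r = 0.786) and least in Ncf1 with Ncf4 (r = 0.389), values that share the array and describe these arrays only.

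Nox4 behaved otherwise. It ranged from 6.16 to 8.0 in the bled knees (median 6.97), from 7.65 to 9.16 contralaterally (median 8.17) and from 6.31 to 7.65 in sham knees (median 6.87). The bled side was 1.35 ± 0.21 below the contralateral side (2.54-fold; adjusted p = 4.27e-06), and 10 of 11 bled knees lay under every contralateral knee. Against sham, however, the bled knees were not distinguishable (difference 0.00 ± 0.24, 95% interval −0.50 to 0.49, adjusted p = 0.998), an interval that still allows a change of 1.41-fold either way. The contralateral knees were the group that stood apart: they were 1.35 ± 0.24 above sham (adjusted p = 0.0014), with 10 of 11 above every sham knee.

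Sod2 ranged from 11.10 to 11.83 in the bled knees (median 11.42), from 9.44 to 10.84 contralaterally (median 10) and from 9.34 to 10.11 in sham knees (median 9.77). Its rise of 1.49 ± 0.13 over the contralateral side (2.81-fold; adjusted p = 3.88e-11) left no overlap. Sod3 moved the opposite way, ranging from 10.01 to 11.44 in the bled knees (median 10.39), from 12.28 to 12.69 contralaterally (median 12.54) and from 12.13 to 12.56 in sham knees (median 12.35). It fell by 2.02 ± 0.13 (adjusted p = 7.06e-14), and the bled knees also varied more among themselves than either other group.

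Gpx3 ranged from 10.86 to 11.71 in the bled knees (median 11.16), from 11.85 to 12.91 contralaterally (median 12.23) and from 11.35 to 12.11 in sham knees (median 11.83). It fell by 1.07 ± 0.12 against the contralateral side (2.10-fold; adjusted p = 6.37e-09), whose range it did not reach, but 3 of 11 bled knees lay within the sham range. Cat ranged from 11.72 to 12.26 in the bled knees (median 11.88), and the other knees were tightly grouped, from 12.70 to 13.01 contralaterally (median 12.90) and from 12.70 to 13.02 in sham knees (median 12.99). Its fall of 0.96 ± 0.06 (1.95-fold; adjusted p = 1.16e-13) had the smallest standard error of the 9.

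Compared with sham knees, which share the bled arrays with the comparison above, 5 members were higher and 3 lower, where 19.9% of all probe sets were higher and 18.8% lower. Of the 18166 named genes 4965 were higher and 4209 lower. Centring each array on its median gave 8636 probe sets higher and 4933 lower in this comparison, in place of 7307 and 6908, and left all 8 member calls in place. Cybb was higher by 1.00 ± 0.11 (adjusted p = 4.72e-09), Cyba by 1.27 ± 0.09, Ncf1 by 1.46 ± 0.16, Ncf4 by 2.00 ± 0.13 and Sod2 by 1.69 ± 0.15. Sod3 was lower by 1.85 ± 0.15 (log2 difference −1.85), Cat by 1.00 ± 0.07 (−1.0) and Gpx3 by 0.57 ± 0.13 (−0.57; adjusted p = 0.000916).

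**Figure D2:**
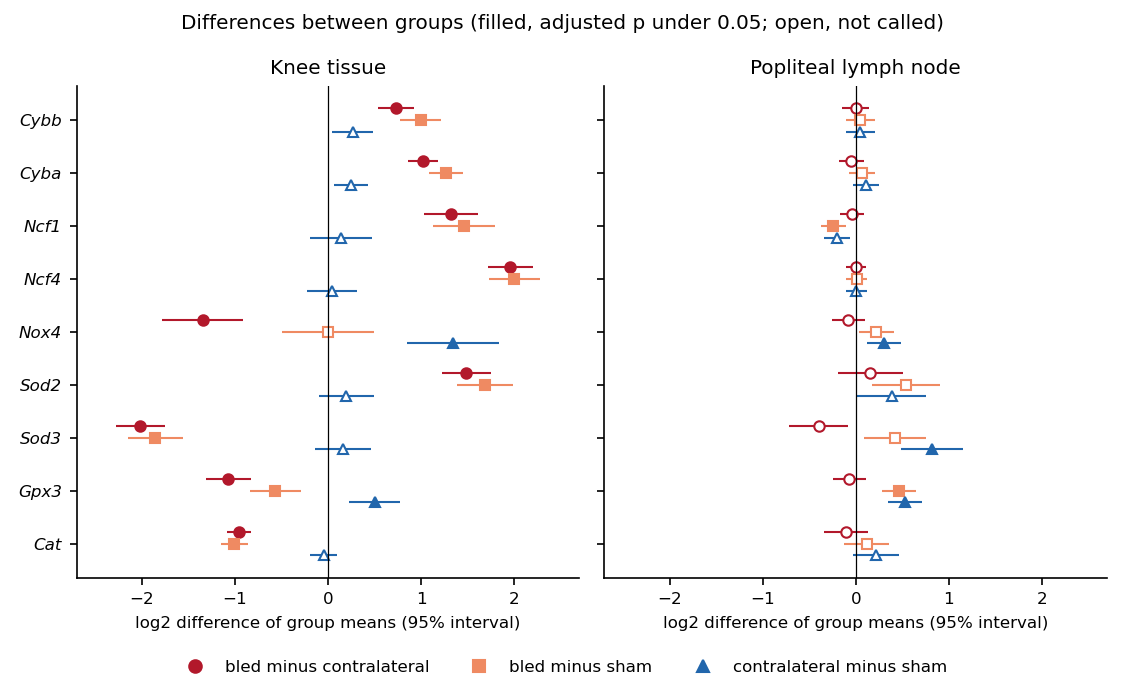
Log2 differences between group means for the 9 genes in the knee (left) and the node (right), with 95% intervals from limma; filled symbols passed an adjusted p of 0.05 and open symbols did not. In the knee the bled groups differ from both others except for Nox4 against sham, and in the node no bled minus contralateral difference is filled.

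The contralateral knee was compared with sham to ask whether a bleed in the other knee was accompanied by changes in this one. 2 members were higher and none lower, where 0.984% of all probe sets were higher and 0.831% lower (361 and 305, or 634 and 217 with each array centred on its median, which left both member calls in place). Of the 18166 named genes 306 were higher and 137 lower. The 2 members were Nox4, given above, and Gpx3, which was 0.50 ± 0.13 higher (1.42-fold; adjusted p = 0.0441), with 8 of 11 contralateral knees above every sham knee. The Nox4 call held in each of 10 alternative analyses (adjusted p from 0.00082 to 0.0119) and with any array left out. That of Gpx3 was lost in 17 of 29 fits with 1 array left out, among them those without the sham knee C5 (adjusted p = 0.0735) or the K10 contralateral knee (adjusted p = 0.0529). The 7 other members did not pass, Cybb at 0.27 ± 0.11 (adjusted p = 0.213) and Cyba at 0.25 ± 0.09 (adjusted p = 0.149) coming closest.

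Within rats, the side-to-side differences varied in size but not in sign. They varied least in Cat, from −1.19 to −0.56 (SD 0.18), and most in Nox4, from −2.27 to −0.33 (SD 0.68). K10 had the smallest rise of the 11 rats in Cybb (0.31), Cyba (0.71), Ncf1 (0.51), Ncf4 (1.32) and Sod2 (0.52), and also the smallest fall in Nox4 (−0.33). Its contralateral knee had the highest Cyba (9.84), Ncf4 (7.29) and Sod2 (10.84) of that group. Its neutrophil marker mean was also the highest there, 7.70 where the other contralateral knees lay between 5.68 and 6.20. So were its macrophage (10.39) and T cell (7.18) marker means. Its bled knee had the highest Nox4 of the bled knees (8.0) and, with K11, the lowest Ncf4 (8.61). The part of these cells in its small differences was not tested. Without the K10 contralateral array every member's difference kept its call, Sod2 at 1.58 and Ncf1 at 1.38.

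**Figure D3:**
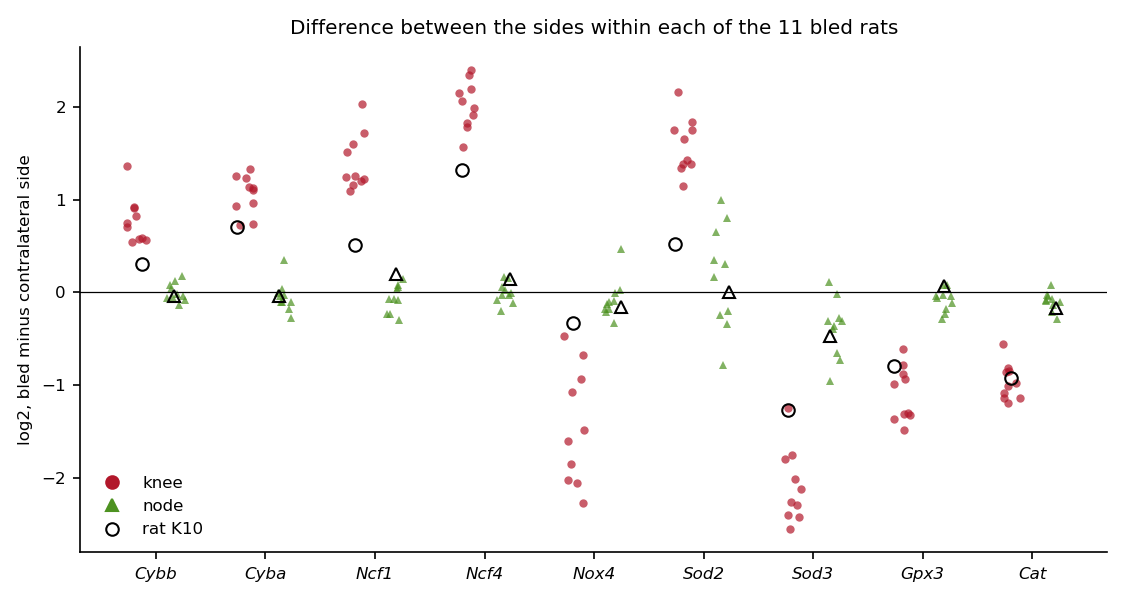
Log2 difference between the bled and the contralateral side within each of the 11 bled rats, for knees (circles) and nodes (triangles), with rat K10 drawn as open black symbols. All knee differences of Cybb, Cyba, Ncf1, Ncf4 and Sod2 lie above 0 and all of Nox4, Sod3, Gpx3 and Cat below it, K10 being nearest to 0 in Cybb, Cyba, Ncf1, Ncf4, Nox4 and Sod2.

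Markers of several cell types moved with these genes, in a comparison where 19.5% of all probe sets were higher and 15.2% lower. Of 13 neutrophil markers 9 were higher and 1 lower in bled than in contralateral knees, and the mean over the list ran from 6.81 to 8.88 in the bled, 5.68 to 7.70 in the contralateral and 5.58 to 5.88 in the sham knees. Of 14 monocyte and macrophage markers 11 were higher and 2 lower, with list means of 10.68 to 11.20, 9.79 to 10.39 and 9.51 to 9.96. Of 8 T cell markers 7 were higher and 1 lower, with list means of 7.53 to 8.08, 6.39 to 7.18 and 6.20 to 6.52. All 10 adipocyte markers were lower, with list means of 8.31 to 9.92, 11.14 to 11.73 and 11.02 to 11.65, as were 8 of 11 synovial fibroblast and 5 of 5 endothelial markers. Of 7 skeletal muscle markers 1 was lower and none higher, but their median difference was −2.07. Muscle list means ranged from 6.14 to 12.29 (median 7.55), from 6.40 to 12.61 (median 10.93) and from 6.40 to 12.58 (median 10.80). Each member kept its call in 11 alternative analyses of this comparison, among them that with the muscle mean as a covariate. The phagocyte subunits rose beside the phagocyte markers, and Sod3, Gpx3 and Cat fell beside the adipocyte, fibroblast and endothelial markers; the part of these cells in the members' differences was not tested, and in bulk tissue more or fewer cells of a type and more or less RNA per cell cannot be told apart.

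The rest of the pathway was read from a list of other oxidase and peroxide genes, of which 36 were matched to a probe set; Nox1 was not used here. Between the bled and the contralateral knee 17 were higher and 6 lower. Over all probe sets 19.5% were higher and 15.2% lower, so the count of lower genes was near that background share. Of the 18166 named genes, however, 4698 were higher and 4233 lower, which are larger shares. The median of the 36 pathway genes was 0.20, against 0.00 over all probe sets. The largest rises were in genes of peroxide and disulphide reduction and of oxidase assembly. Prdx5, a peroxiredoxin, was 5.89-fold higher (2.56 ± 0.10; adjusted p = 1.42e-18), from a median of 8.37 to 10.98, and Glrx, the glutaredoxin, rose by 2.18 ± 0.13. Vav1, an exchange factor that activates Rac proteins, rose by 1.84 ± 0.13, and Rac2, the blood-cell Rac that joins the phagocyte oxidase, by 1.67 ± 0.12, with no bled knee in the contralateral range for either. Txnrd1, the cytosolic thioredoxin reductase, rose by 1.22 ± 0.07, and the peroxiredoxin Prdx1 by 1.00 ± 0.08.

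Of the 6 that were lower, Mpo, the myeloperoxidase that is also on the neutrophil marker list, fell most, by 1.98 ± 0.31 (adjusted p = 4.16e-06), from a contralateral median of 8.30 and a sham median of 8.57 to a bled median of 6.30, while its bled knees ranged widely from 5.38 to 9.12. This fall went against the other neutrophil markers, 9 of which rose. The dual oxidase maturation factor Duoxa2 was lower by 0.76, the xanthine oxidoreductase gene Xdh by 0.53 and the peroxiredoxin Prdx4 by 0.44. The dual oxidase Duox2 was lower by 0.43 and the cytosolic dismutase Sod1 by 0.11. For Xdh and Sod1 the bled means (11.125 and 10.036) were not below the sham means (11.117 and 9.981). Their contralateral means were 11.657 and 10.151. Bled, contralateral and sham means were 5.393, 6.154 and 5.563 for Duoxa2, and 5.307, 5.737 and 5.666 for Duox2. Both genes were dim, near the array medians of 5.64 to 5.94. Sod1 passed only narrowly (adjusted p = 0.0405); it lost its call in 4 of 11 alternative analyses, among them that with rat as a fixed block (adjusted p = 0.0763), and in 13 of 29 fits with 1 array left out. Against sham 21 pathway genes were higher and 3 lower, where 19.9% and 18.8% of all probe sets were, led by Prdx5 (2.62), Vav1 (2.34) and Glrx (2.32) and by Mpo (−2.01), Prdx4 (−0.35) and Gpx7 (−0.34), the last with an adjusted p of 0.0466 and a call lost in 17 of 29 fits with 1 array left out and in 3 of 10 alternative analyses (adjusted p up to 0.199). Between the contralateral and the sham knees Xdh (0.54 ± 0.10; adjusted p = 0.00178) and Prdx6 (0.31 ± 0.07; adjusted p = 0.0106) were higher and none was lower.

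**Figure D4:**
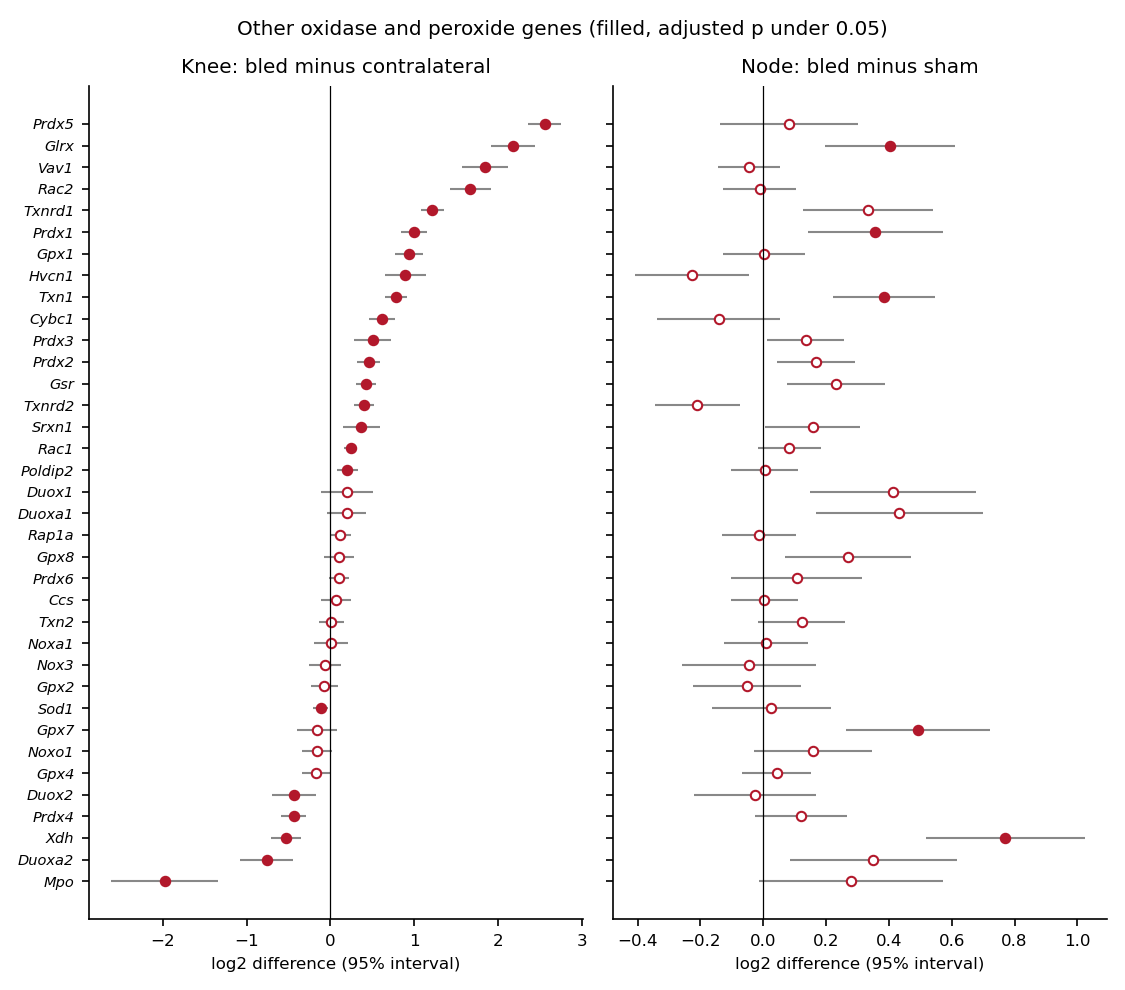
Log2 differences with 95% intervals for the 36 other oxidase and peroxide genes, bled minus contralateral in the knee (left) and bled minus sham in the node (right, on a narrower axis), ordered by the knee value; filled points passed an adjusted p of 0.05. 17 genes are filled to the right and 6 to the left of 0 in the knee, and 5 to the right in the node.

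**Figure D5:**
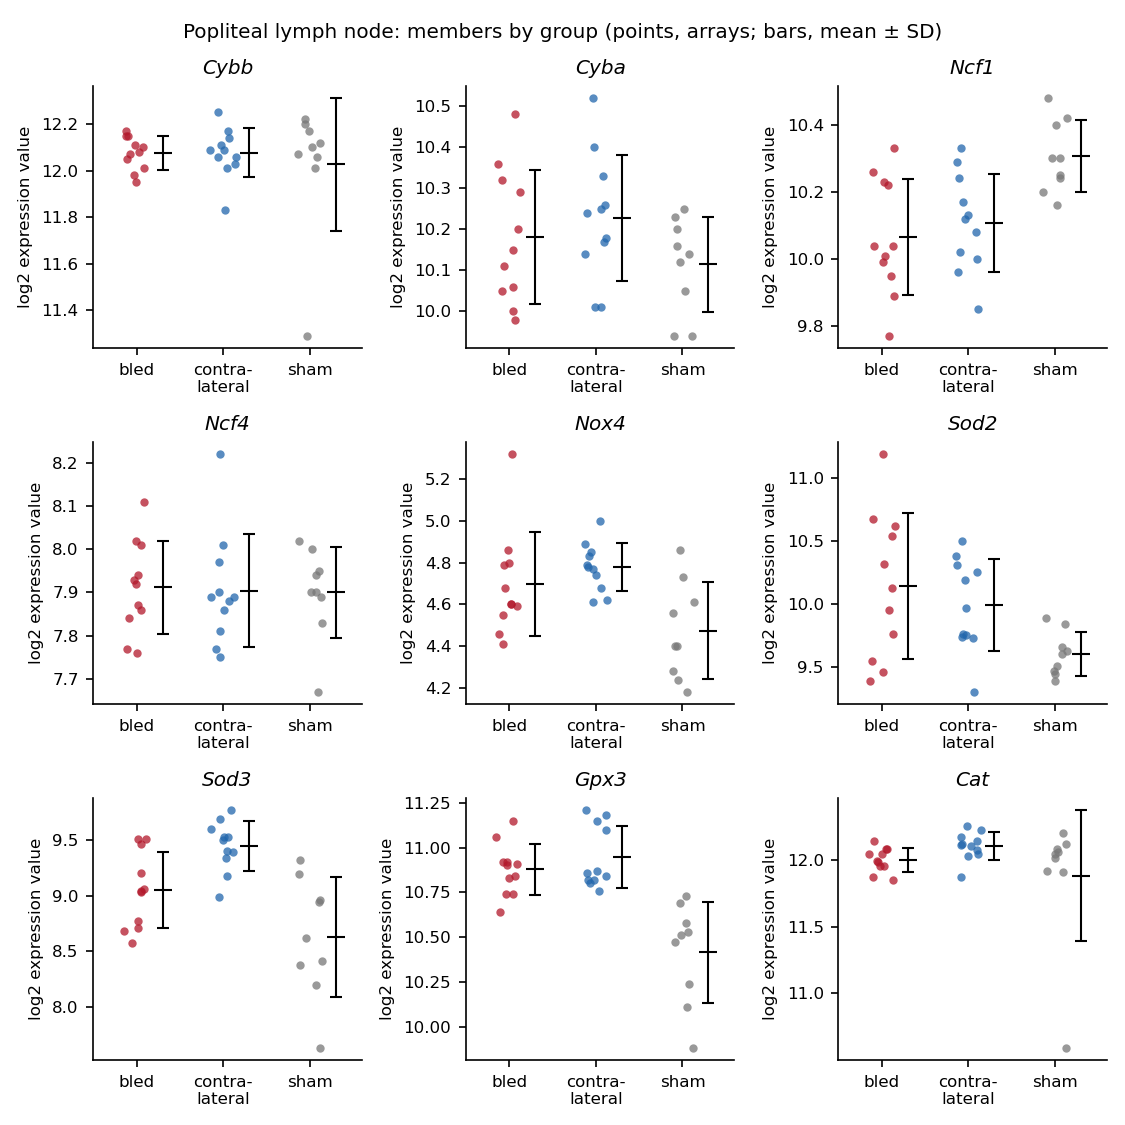
Log2 expression values of the 9 genes in the popliteal node, with 1 point per array (11 bled side, 11 contralateral side, 9 sham) and the mean ± SD. The groups overlap for every gene between the 2 sides of the bled rats, and the C9 sham node is the low point for Cybb (11.29) and Cat (10.59).

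In the node, no member and no other probe set passed the test between the bled and the contralateral side: limma called 0% of 36685 in the higher and 0% in the lower direction. At an unadjusted p under 0.05 there were 860 of the 36685 probe sets, fewer than evenly spread p-values would give, and 1 of them was a member. That member was Sod3, which ranged from 8.57 to 9.51 on the bled side (median 9.04) and from 8.99 to 9.77 on the contralateral side (median 9.50), a difference of −0.40 ± 0.15 (adjusted p = 1) that was negative in 10 of 11 rats. The main test held no term for the rat, although the deviations of a rat's node sides correlated at 0.12 to 0.32, so it did not use their pairing. In 11 alternative limma analyses, among them those with rat as a block, the adjusted p of Sod3 was 0.789 or above. Cybb, Cyba, Ncf1 and Ncf4 differed by between −0.05 and 0.01, with 95% intervals that reached at most 0.18 from 0.

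Against sham nodes, which both comparisons below share, Gpx3 was higher on both sides. It ranged from 10.64 to 11.15 on the bled side (median 10.90), from 10.76 to 11.21 on the contralateral side (median 10.86) and from 9.88 to 10.73 in sham nodes (median 10.51). All 11 contralateral nodes and 10 of 11 bled-side nodes lay above every sham node. The difference was 0.46 ± 0.09 on the bled side (1.38-fold; adjusted p = 0.00412) and 0.53 ± 0.09 on the contralateral side (1.44-fold; adjusted p = 0.00117). On the bled side 1 member was higher, and 1 was lower, where 1.91% of all probe sets were higher and 2.34% lower; on the contralateral side 3 were higher and none lower, where the shares were 2.22% and 2.81%. With each array centred on its median these splits became 938 higher and 414 lower in place of 701 and 860, and 1052 and 442 in place of 813 and 1031. Of the 18166 named genes 549 were higher and 447 lower on the bled side, and 674 and 551 on the contralateral side.

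The member that was lower was Ncf1, which ranged from 9.77 to 10.33 on the bled side (median 10.04), from 9.85 to 10.33 on the contralateral side (median 10.12) and from 10.16 to 10.48 in sham nodes (median 10.30). It was −0.24 ± 0.07 from sham on the bled side (adjusted p = 0.0394) and −0.20 ± 0.07 on the contralateral side (adjusted p = 0.0871), and the first call was lost in 12 of 31 fits with 1 array left out and when arrays were centred (adjusted p = 0.144). Sod3, at 7.63 to 9.32 in sham nodes (median 8.62), was 0.82 ± 0.16 higher on the contralateral side (1.77-fold; adjusted p = 0.00436) and 0.42 ± 0.16 from sham on the bled side (adjusted p = 0.138). Nox4 was 0.30 ± 0.09 higher on the contralateral side (adjusted p = 0.0473), from a sham median of 4.40 to 4.78, a call that was lost in 22 of 31 fits with 1 array left out.

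Sod2 ranged widely in the nodes, from 9.39 to 11.19 on the bled side (median 10.13), from 9.30 to 10.50 on the contralateral side (median 9.97) and from 9.39 to 9.89 in sham nodes (median 9.60). Its difference of 0.54 ± 0.18 on the bled side did not pass (adjusted p = 0.0816), although 7 of 11 nodes lay above every sham node. Cybb, Cyba, Ncf4 and Cat did not pass against sham on either side. The C9 sham node held the lowest Cybb (11.29) and Cat (10.59), and without it the Cat difference on the bled side moved from 0.12 to −0.05 and that of Cybb from 0.05 to −0.04. Without both the C2 and the C9 nodes, Sod3 (0.62; adjusted p = 0.0197) and Gpx3 (0.41; adjusted p = 0.00572) kept their calls on the contralateral side, and Nox4 did not (adjusted p = 0.156).

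Adipocyte, macrophage and fibroblast markers moved with these node results. Of 10 adipocyte markers 5 were higher on the contralateral side and 3 on the bled side than in sham nodes. Their list means were 8.58 to 9.32, 7.41 to 9.35 and 7.36 to 9.12. In addition, 5 of 14 monocyte and macrophage markers were higher on each side. Of 11 synovial fibroblast markers 4 were higher on the contralateral side and 1 on the bled side, and none was lower. Their list means were 9.10 to 9.51, 8.97 to 9.48 and 8.73 to 9.17. A fibroblast covariate was not tested. With the adipocyte mean as a covariate, none of the 3 contralateral calls was left: Sod3 stood at 0.41 (adjusted p = 0.278), Gpx3 at 0.47, near its 0.53 without the covariate (adjusted p = 0.073), and Nox4 at 0.19 (adjusted p = 0.502). On the bled side Gpx3 kept its call with the covariate (0.42; adjusted p = 0.0324) and in each of the 9 other alternative analyses, and Ncf1 did not keep its own (adjusted p = 0.16). Of the other pathway genes, 5 were higher and none lower on the bled side and 6 were higher and 1 lower on the contralateral side, where 1.91% and 2.34%, and 2.22% and 2.81%, of all probe sets were; 1 lower gene of 36 is at that background. Xdh led both, at 0.77 ± 0.12 (adjusted p = 0.00117) and 0.83 ± 0.12 (adjusted p = 0.000395). Next came the peroxidase gene Gpx7 at 0.49 and 0.53, then Glrx at 0.40 on the bled side and Duox1 at 0.43 on the contralateral side. Duox1 was dim in the nodes, with means of 5.75 contralaterally and 5.32 in sham nodes. The lower gene was Txnrd2, the mitochondrial thioredoxin reductase, at −0.23 ± 0.07 (adjusted p = 0.0378). With 1 array left out Txnrd2 lost its call in 11 of 31 fits and Duox1 in 20 of 31, and Glrx lost it without the C2 sham node (adjusted p = 0.0545). With the adipocyte covariate Xdh kept its call on the bled side (0.66; adjusted p = 0.0125), and the other named pathway genes lost theirs. These were Gpx7 (adjusted p = 0.0762) and Glrx (0.0844) on the bled side, and Xdh (0.0501), Gpx7 (0.205), Duox1 (0.361) and Txnrd2 (0.34) on the contralateral side.

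The knee and node responses were compared directly in a model of all 60 arrays. For bled against contralateral all 9 members differed between the tissues, 5 with a higher and 4 with a lower knee value, where 15.5% and 12.4% of all probe sets did so. Ncf4 differed most upwards (1.95 ± 0.13; adjusted p = 3.52e-19) and Sod3 most downwards (−1.62 ± 0.21; adjusted p = 1.86e-09). For bled against sham 5 members were higher and 3 lower, with background shares of 18% and 13.2%, and Nox4 was the member not called (−0.22 ± 0.25; adjusted p = 0.566). For contralateral against sham Nox4 alone was called, 1.04 ± 0.25 higher in the knee (adjusted p = 0.0183), where 1.14% of all probe sets were higher and 0.891% lower. Nox4 was dim in the node (mean 4.66), so a change there could be understated. Of the 18166 named genes, the higher and lower counts were 4018 and 3559, 4441 and 3531, and 320 and 192, in the order given.

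The order of the 6 groups also differed among the members. Cybb was high in the nodes and the bled knees (means of 12.03 to 12.08) and lower in the other knees (11.31 and 11.04). Ranges of neighbours in that order overlapped, but the sham nodes reached the contralateral knees only through the C9 node (11.29). The next lowest sham node lay at 12.01 and the highest contralateral knee at 11.70. Ncf4 had its highest mean in the bled knees (8.88), whose range did not reach the nodes (7.90 to 7.91), and the nodes in turn stood clear of the other knees. Nox4 and Sod3 were higher in every knee group than in any node group, without overlap. Cat, high in the contralateral and sham knees, fell in the bled knees to the range of the nodes.

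The genes most like each member, by the Pearson correlation of deviations from group means over the arrays of a tissue, are given as a description. In the knee (29 arrays) these were Cd53 (r = 0.865), Igsf6 and Nckap1l for Cybb, Gltp (0.855), Gna15 and Cotl1 for Cyba, Blnk (0.809), Slc43a2 and Sash3 for Ncf1, and Tyrobp (0.795), Atp8b4 and Slc39a6 for Ncf4. Nox4 was nearest to Plxdc2 (0.833), Vwa5al1 and Marveld1, and Sod2 to Adam12 (0.760), Slc35b1 and Sec61a2. For Sod3 they were the adipocyte gene Cfd (0.880), Ntn1 and Col14a1, for Gpx3 Clip3 (0.830), Dcn and Flrt2, and for Cat Aldh6a1 (0.772), Ech1 and Fxyd1. In the node (31 arrays) Sod3 was nearest to Trarg1 (0.90), Cav1 and Sort1, Sod2 to Adamts9 (0.875), Ugdh and Calu, Gpx3 to Pttg1ip (0.817), Plvap and Myorg, and Ncf1 to Gga2 (0.803), Snn and Ciita. Cyba was nearest to Gipc1 (0.822), Hspbp1 and Prag1, Ncf4 to Naprt (0.742), Slc19a2 and Spi1, and Nox4 to Mme (0.736), Loxl2 and Chaf1b. The node values of Cybb with Cdc14b (0.915) and of Cat with Jmjd8 (0.950) fell to 0.591 and 0.436 without the C2 and C9 nodes, so those 2 rested on these arrays.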

How the data were processed

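RNA from 29 knee and 31 node samples was measured on 1 Affymetrix rat gene array each, and groups, sides and rats came from the labels. The authors deposited RMA values on the log2 scale, and per the submitters' processing notes the software was Affymetrix Expression Console 1.4.46; they ran from 1.62 to 14.03 for 36685 probe sets, with array medians of 5.64 to 5.94. Joint normalization of the tissues and hybridization batches are not given in the sources used here. Precision was limited by array number, among other things. Of 19086 annotated probe sets 18511 had 1 symbol and 575 several, and 17599 were unlisted; the last 2 kinds were tested but not named.

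Within each tissue limma 3.58.1 (R 4.3.3, data.table, version 1.17.8) fitted the 3 groups to all probe sets, with eBayes and Benjamini-Hochberg adjustment over all of them; a gene was called at an adjusted p under 0.05. Tissue differences were contrasts of contrasts over all 60 arrays. The fits were tested on simulated data drawn independently for each array. That test held no effect of the rat, so it did not address the pairing of the sides. Descriptions used Python 3.11.15 with pandas 2.3.3, numpy 2.4.6, scipy 1.17.1 and matplotlib 3.10.9. All 9 members were named, together with the 6 largest called changes each way among the other pathway genes for bled against contralateral knees and the 3 largest each way elsewhere; 1 further gene of the rule is not reported here. The members and lists were chosen with earlier results of these data known. Marker lists not described above were B cell (1 of 5 higher in bled against contralateral knees) and erythroid (none of 2 called).

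Per the labels, left and right samples of a bled rat share the animal, which pairs them; deviations of the 2 sides correlated from −0.10 to 0.21 in the knee and 0.12 to 0.32 in the node (duplicateCorrelation 0.078 and 0.266). Alternatives were rat as a block, the compared groups alone, quantile normalization, centring on array medians, a filter on dim probe sets, a trend with robust prior, array weights, 1 probe set per gene, leaving out arrays, marker means as covariates and a stricter threshold.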

Additional observations from a re-analysis of the deposited data

Results flagged for a closer look

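Among the 18 groups of 4 to 10 arrays tested (9 genes in the sham knees and the sham nodes), 2 had an array far from the others by Dixon's test, which chance alone flags in about 1 of 20 groups: Cybb at 11.29 and Cat at 10.59, both the C9 sham node.

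The other results listed here are differences between the knee and the node in the same comparison, each past an adjusted p of 0.05 in limma's test of the difference itself. For bled minus contralateral, the knee value exceeded the node value by 0.73 in Cybb, 1.07 in Cyba, 1.36 in Ncf1, 1.95 in Ncf4 and 1.33 in Sod2, and the difference was −1.26 in Nox4, −1.62 in Sod3, −1.0 in Gpx3 and −0.86 in Cat. For bled minus sham it was 0.95 in Cybb, 1.20 in Cyba, 1.70 in Ncf1, 1.99 in Ncf4, 1.15 in Sod2, −2.28 in Sod3, −1.03 in Gpx3 and −1.12 in Cat. For contralateral minus sham it was 1.04 in Nox4. That gene was dim in the node (mean 4.66), which limits each of its values here.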

How the results depend on the processing

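Under the 12 settings tried, 840 of 879 member values kept their direction and side of the threshold, 16 lost their call, 2 gained one and 21 changed sign, none of which had been called. With rat as a random or fixed replicate block no member's call changed; for example, the count for bled against contralateral knees stayed at 9. The count of members for contralateral against sham knees went from 2 to 1 with the compared groups alone, quantile normalization, array weights, without the sham arrays that stood apart and at an adjusted p under 0.01. That for bled-side against sham nodes went from 2 to 1 with the compared groups alone, centring, the covariate and the stricter threshold, that for contralateral against sham nodes from 3 to 0 with the covariate and to 2, without Nox4, with array weights, without the sham arrays that stood apart and at the stricter threshold, and that for the tissue difference of contralateral against sham from 1 to 0 at the stricter threshold. The filter on dim probe sets removed Nox4 in the nodes and called Sod2 on the bled side (adjusted p = 0.0486, count 3) and Ncf1 on the contralateral side (adjusted p = 0.0474). With 1 array left out, the count ran from 1 to 2 for contralateral against sham knees and from 1 to 3 for bled-side against sham nodes. Sign changes, all near 0, were Nox4 in bled against sham knees (0.0336 by quantile normalization, 0.0827 centred), Cat in contralateral against sham knees (0.0139 centred), and Ncf4 there (−0.0792 with array weights, −0.0782 without the arrays that stood apart). In bled-side against sham nodes they were Cybb (−0.0098 by quantile normalization, −0.0257 by weights, −0.0326 without those arrays), Ncf4 (−0.0268 and −0.021 by the last 2) and Cat (−0.0092 and −0.0227), and on the contralateral side Cybb (−0.0243 and −0.0308) and Ncf4 (−0.027 and −0.0283). In the tissue difference of contralateral against sham they were Ncf4 (−0.0555 and −0.0499) and Gpx3 (0.0395 and 0.1062), and Ncf4 between the node sides stood at −0.0092 with the covariate. With 1 array left out, Cybb and Ncf4 between the node sides ran from −0.0265 to 0.0155 and from −0.0125 to 0.0388. In bled-side against sham nodes Cybb ran from −0.0442 to 0.072, Ncf4 from −0.0169 to 0.027 and Cat from −0.0452 to 0.156, and on the contralateral side Cybb from −0.0424 to 0.0743 and Ncf4 from −0.027 to 0.02. Nox4 in bled against sham knees ran from −0.11 to 0.1224, and Ncf4 in contralateral against sham knees from −0.0782 to 0.1135. The causes were not tested. Other probe sets of a member were not run, since each has 1; leaving out each array was added after seeing the data.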

Other observations

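Within the 11 bled knees, each member's level was set against the mean of 4 marker lists (neutrophil, monocyte and macrophage, adipocyte, skeletal muscle), 36 relations in all, chosen after the data had been seen. With permutation tests adjusted over the 36, 4 passed. Cybb was higher where the macrophage markers were higher (Pearson r = 0.816, Spearman rho = 0.836, permutation p = 0.00202 and 0.0022, adjusted p = 0.031 and 0.0415; r = 0.718 without the 2 farthest knees). Nox4 was higher where the adipocyte markers were higher (r = 0.795, rho = 0.829, permutation p = 0.00344 and 0.00273, adjusted p = 0.031 and 0.0415; r = 0.693 without the 2 farthest). Sod3 followed the adipocyte markers by r (0.814, permutation p = 0.00268, adjusted p = 0.031) but less by rho (0.636, permutation p = 0.0393, adjusted p = 0.185), and r was 0.397 without K1 and K10, so this relation rests on those knees. Cyba was lower where the muscle markers were higher (r = −0.847, rho = −0.818, permutation p = 0.00118 and 0.00346, adjusted p = 0.031 and 0.0415; r = −0.693 without the 2 farthest). The neutrophil markers varied from 6.81 to 8.88 over these knees and passed with none of the 9 genes. By r, Sod2 came nearest (r = 0.693, permutation p = 0.0171, adjusted p = 0.123), but its r was 0.514 without K2 and K3. By rho, Nox4 came nearest (rho = −0.665, permutation p = 0.0291, adjusted p = 0.185). Its r was −0.627, and −0.72 without K2 and K3.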
